A study of Mus musculus with 6 samples.

Results

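The 40 genes described here encode the cyclins, kinases, replication proteins and mitotic machinery of the cell division cycle. They were taken by symbol from a table of 55536 mouse liver genes, all 40 were found, and all 40 had a value above 0 in every library. They were divided by role into 22 genes of G1 and DNA synthesis (G1/S) and 18 genes of G2 and mitosis (G2/M), with Ccna2 placed in the second class although cyclin A2 also acts in S phase. RNA from 6 liver samples of C57BL/6 mice aged 8 to 10 weeks was sequenced, 1 library per sample. In all 6 samples the mice carried floxed Vmp1 alleles, and each was given, by vein, the adeno-associated virus AAV8 with the TBG promoter, which is active in hepatocytes. The virus carried Cre recombinase (AAV8-TBG-cre) in the 3 samples labelled H-VMP1 KO and no transgene (AAV8-TBG-null) in the 3 samples labelled WT, and livers were taken after 2 weeks. Cells other than hepatocytes were not targeted by design, and whether they kept an intact Vmp1 was not tested. Whether the replicates were different animals is not labelled, so the p-values rest on the spread between samples, which may be technical.

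Most hepatocytes of an adult liver rest outside the cell cycle and can re-enter it after injury. D-type cyclins with CDK4 and CDK6 phosphorylate the retinoblastoma protein, which releases E2F transcription factors, and E2F then drives genes of nucleotide supply, origin licensing and DNA synthesis. Genes of G2 and mitosis are transcribed later, through the MuvB core complex with B-MYB and FOXM1, and many of their promoters hold a cell cycle homology region (CHR) and CCAAT boxes. Hepatocytes can also replicate DNA without dividing, so expression of either class does not by itself show that cells divided.

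Values are TPM, transcript abundance corrected for length and brought to a common sum per library. Read numbers cannot be recovered from TPM, so the depth and a detection limit are unknown, and the precision of values far below 1 TPM cannot be given. Fold changes are differences of log2(TPM + 1), labelled knockout minus WT, with their standard error (SE) and a Benjamini-Hochberg adjusted p from limma over 28532 genes with a value above 0 in at least 1 library. The 1 added to each value understates the change of low genes. The targeted gene does not check the labels: Vmp1 was at 157, 136 and 137 TPM in the labelled knockout, against 70.7, 96.5 and 88.6 TPM in WT. Its log2 fold change of 0.75 ± 0.14 (SE, adjusted p = 0.0032) was lost with another scaling between libraries (-0.18 ± 0.12, adjusted p = 0.31). Gene-level TPM can include any exons left after recombination, and all directions given below depend on the labels. Most expressed genes were higher in the labelled knockout as deposited: the median log2 fold change over 12796 expressed genes (1 TPM or more in 3 or more libraries) was 0.77. Scaling by the median of ratios, under which the typical gene does not change, divided the labelled knockout by 1.39 and WT by 0.721, a shift of 0.95 on the log2 scale before the pseudocount, and moved the median over all 28532 genes to 0.01, against 0.13 as deposited. Results are therefore given with both scalings. In bulk tissue, more cells of a type and more RNA per cell cannot be told apart.

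Members of both classes stood higher in the labelled knockout, the G2/M genes more uniformly than the G1/S genes. Of the 40 members, 37 rose, 1 fell (Tk1) and 2 were not called (Cdk2 and Rrm2), where 44.3% of all tested genes were called higher and 5.7% lower. Among the expressed genes 74.5% were called higher and 10.7% lower; 37 members passed that filter, 19 of them under 1 TPM in every WT library, so they passed only through the labelled knockout. With median-of-ratios scaling 27 members were called higher and 2 lower (Tk1 and Cdk2), against 20.6% and 17.8% of all genes. With quantile normalization 29 were higher and 2 lower, against 19.5% and 18.8% of all genes. Shares among the expressed genes, which were larger as deposited, were not computed with these scalings. The 18 G2/M members were called higher with all 3 scalings, while the count of higher G1/S members was 19 as deposited, 9 with median-of-ratios scaling and 11 with quantile normalization. The median log2 fold change was 1.61 over the G2/M members and 1.17 over the G1/S members as deposited, and 1.24 and 0.42 with median-of-ratios scaling. Every labelled knockout library was above every WT library for 37 members, as for 48.5% of all tested genes and 75.5% of the expressed genes, and below for 1 member, against 6.81% of all tested genes.

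**Figure D1:**
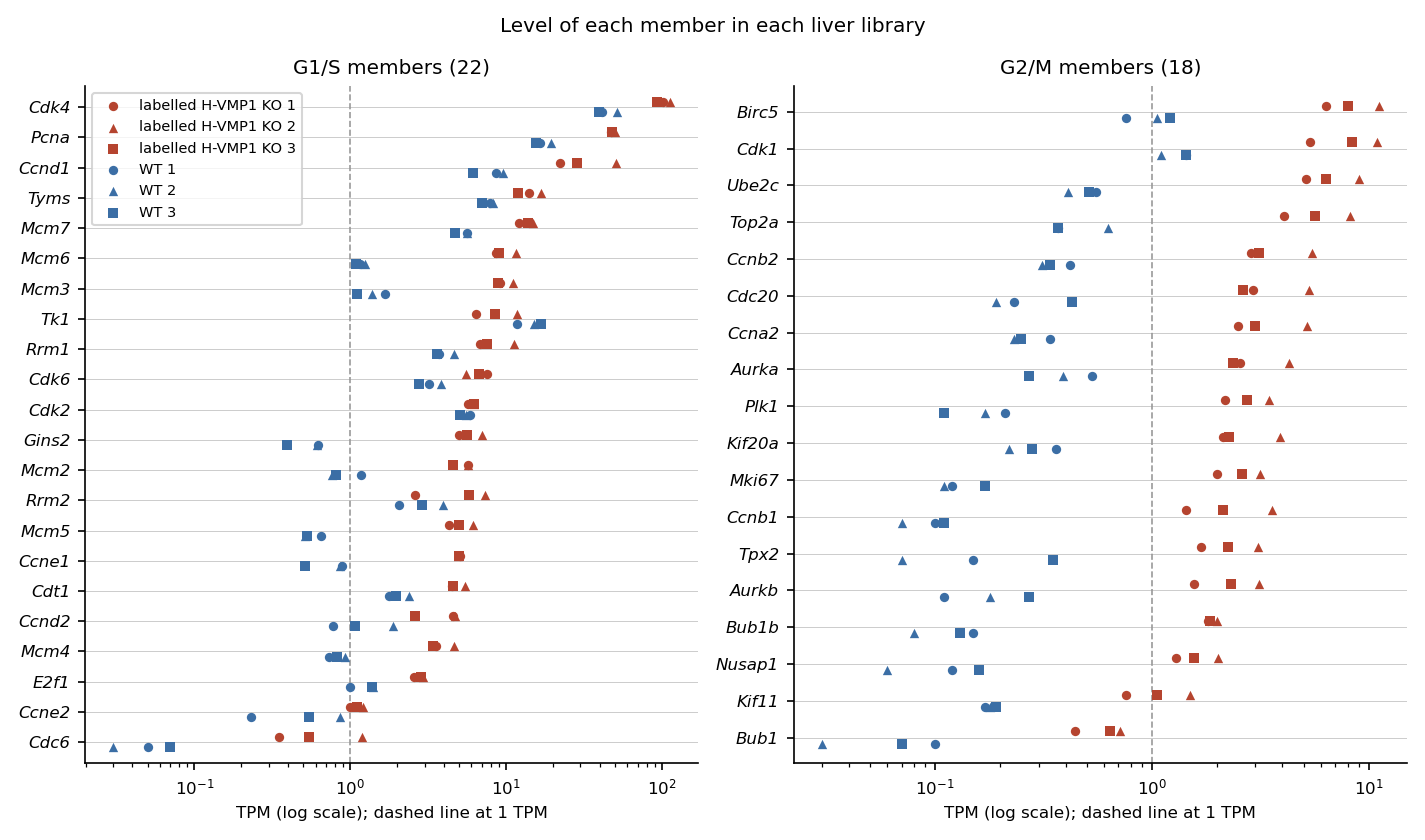
TPM of each of the 40 members in each library on a log scale, G1/S genes on the left and G2/M genes on the right, with the labelled knockout in red above WT in blue on each row. In the G2/M panel the red and blue points do not overlap in any row, and 49 of 54 WT values lie under the dashed line at 1 TPM.

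The promoters of the members are shown because the classes moved together to different degrees and are known to be read through different elements. RefSeq promoter windows on GRCm38.p6, from 250 bases before to 50 bases after the start, were matched for 31 members, 17 G1/S and 14 G2/M. Aurkb, Ccna2, Ccnd1, Ccnd2, Ccne2, Gins2, Kif20a, Mcm4 and Tpx2 had no entry. An E2F element was searched as TTTCCCGC, TTTCGCGC, TTTGCCGC or TTTGGCGC, a CHR as TTTGAA and a CCAAT box as CCAAT, each on both strands. A gene was counted when any of its windows held the letters. The E2F letters were found in 7 of 17 G1/S genes and 1 of 14 G2/M genes (Cdk1), and in 2.6% of all 27025 genes with a window. The CHR letters were found in 10 of 14 G2/M genes and 1 of 17 G1/S genes (Mcm2), and in 20.2% of all genes with a window. CCAAT was found in 12 of 14 G2/M and 9 of 17 G1/S genes, and in 41.1% of all genes with a window. The windows below are those of the 2 G1/S members with E2F letters and the 3 G2/M members with CHR letters that had the largest change in log2(TPM + 1), with Cdk2 as a G1/S member that holds E2F letters and was not called. They run 5′ to 3′ on the strand of the gene, and capitals mark E2F, CHR and CCAAT letters on either strand, which overlap or adjoin in places.
Mcm6: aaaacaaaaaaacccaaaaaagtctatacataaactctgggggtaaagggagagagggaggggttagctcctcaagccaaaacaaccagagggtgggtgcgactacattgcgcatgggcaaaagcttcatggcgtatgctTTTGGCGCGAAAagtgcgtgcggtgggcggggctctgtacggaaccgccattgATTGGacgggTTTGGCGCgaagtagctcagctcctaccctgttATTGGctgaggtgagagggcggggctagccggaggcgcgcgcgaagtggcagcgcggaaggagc
Mcm3: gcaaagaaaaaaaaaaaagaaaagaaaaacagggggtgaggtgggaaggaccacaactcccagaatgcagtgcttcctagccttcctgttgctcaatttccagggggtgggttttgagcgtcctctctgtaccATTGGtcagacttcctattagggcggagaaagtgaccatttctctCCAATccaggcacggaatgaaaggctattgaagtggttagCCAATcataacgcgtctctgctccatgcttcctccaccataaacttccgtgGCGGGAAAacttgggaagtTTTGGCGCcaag
Cdk2: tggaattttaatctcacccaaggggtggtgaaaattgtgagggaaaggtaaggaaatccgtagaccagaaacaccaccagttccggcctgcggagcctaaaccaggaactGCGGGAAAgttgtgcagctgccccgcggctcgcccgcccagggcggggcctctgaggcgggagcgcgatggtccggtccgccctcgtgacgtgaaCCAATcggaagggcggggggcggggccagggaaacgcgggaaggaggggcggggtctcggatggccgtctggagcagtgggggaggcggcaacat
Ube2c: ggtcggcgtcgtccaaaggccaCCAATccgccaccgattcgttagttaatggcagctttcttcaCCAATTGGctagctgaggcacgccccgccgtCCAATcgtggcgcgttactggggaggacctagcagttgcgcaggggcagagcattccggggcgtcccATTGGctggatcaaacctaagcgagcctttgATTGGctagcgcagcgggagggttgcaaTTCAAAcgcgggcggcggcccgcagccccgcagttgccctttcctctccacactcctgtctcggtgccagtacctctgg
Top2a: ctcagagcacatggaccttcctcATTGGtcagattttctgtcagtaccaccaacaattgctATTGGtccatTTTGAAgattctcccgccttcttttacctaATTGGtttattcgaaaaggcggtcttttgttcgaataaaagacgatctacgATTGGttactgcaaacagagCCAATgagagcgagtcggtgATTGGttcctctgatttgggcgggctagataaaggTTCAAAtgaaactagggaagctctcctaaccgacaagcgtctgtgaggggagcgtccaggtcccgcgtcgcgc
Cdk1: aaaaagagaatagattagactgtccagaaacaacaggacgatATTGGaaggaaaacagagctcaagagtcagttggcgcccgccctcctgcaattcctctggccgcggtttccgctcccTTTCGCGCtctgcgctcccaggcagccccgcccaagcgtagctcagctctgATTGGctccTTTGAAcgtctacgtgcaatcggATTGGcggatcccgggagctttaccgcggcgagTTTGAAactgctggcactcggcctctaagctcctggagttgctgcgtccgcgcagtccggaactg
In the Mcm6 window (chr1:128359656-128359955, minus strand) E2F letters begin at bases -110, -106 and -47 from the start, the first pair overlapping. The Mcm3 window (chr1:20820263-20820562, minus strand) holds them at bases 20 and 39 after the start, and the Cdk2 window (chr10:128705002-128705301, minus strand) at base -140. The 3 printed G2/M windows were chosen for their CHR letters. These begin at base -29 for Ube2c (chr2:164769679-164769978, plus strand), -179 and -23 for Top2a (chr11:99024140-99024439, minus strand) and -71 and -15 for Cdk1 (chr10:69352863-69353162, minus strand). Among the 7 G1/S genes with E2F letters 6 rose as deposited and 4 after scaling by the median of ratios (Mcm3, Mcm5, Mcm6 and Mcm7), and among the 10 G1/S genes without them 8 rose as deposited and 3 with that scaling. All 10 G2/M genes with CHR letters and all 4 without them rose with both scalings. For comparison, the deposited values gave higher calls for 44.3% of tested genes and 74.5% of expressed genes. After the other scaling, 20.6% of tested genes were called higher. Whether the letters go with the calls was not tested. A match describes letters in a window and is not evidence of binding.

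Among the regulators of G1, the D and E cyclins rose and the kinases moved unequally. Ccnd1, which encodes cyclin D1, a mitogen-responsive partner of CDK4 and CDK6, was at 22.3, 50.5 and 28.5 TPM in the labelled knockout, against 8.59, 9.59 and 6.09 TPM in WT. All labelled knockout libraries were above all WT libraries, with replicate 2 far above its own group, and the log2 fold change was 1.87 ± 0.31 (adjusted p = 0.002). With median-of-ratios scaling it was 0.99 ± 0.32 and missed the threshold (adjusted p = 0.053), and with quantile normalization it was called (1.10, adjusted p = 0.049). Ccnd2, encoding cyclin D2, was at 4.54, 4.73 and 2.61 TPM in the labelled knockout and at 0.78, 1.89 and 1.07 TPM in WT, a log2 fold change of 1.14 ± 0.24 (adjusted p = 0.0069) that was not called with median-of-ratios scaling (0.52 ± 0.25, adjusted p = 0.16). Ccne1, encoding the CDK2 partner cyclin E1, was at 5.06, 4.95 and 5 TPM in the labelled knockout, against 0.89, 0.86 and 0.51 TPM in WT. The labelled knockout libraries lay close together, and the rise of 1.78 ± 0.11 (adjusted p = 3.7e-05) held with median-of-ratios scaling (1.19 ± 0.11, adjusted p = 4.1e-04). Its relative Ccne2 was at 1, 1.2 and 1.1 TPM in the labelled knockout and 0.23, 0.86 and 0.54 TPM in WT, a log2 fold change of 0.46 ± 0.16 (adjusted p = 0.045). The Ccne2 call was the weakest among those higher: it was lost without any 1 library other than WT replicate 2 (adjusted p from 0.069 to 0.1) and turned to -0.12 with quantile normalization (adjusted p = 0.66).

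Cdk4 was the most abundant member in both groups, at 102, 113 and 92.9 TPM in the labelled knockout and at 41.5, 51.2 and 39.4 TPM in WT. It rose by 1.21 ± 0.13 on the log2 scale (adjusted p = 2.9e-04), and its value of 0.28 ± 0.12 with median-of-ratios scaling missed the threshold (adjusted p = 0.12), while it was called with quantile normalization (0.56, adjusted p = 0.011). Cdk6, whose kinase also pairs with D cyclins, was at 7.49, 5.54 and 6.75 TPM in the labelled knockout, against 3.21, 3.8 and 2.76 TPM in WT, with log2 fold changes of 0.83 ± 0.14 as deposited (adjusted p = 0.0023) and 0.06 ± 0.10 with the other scaling (adjusted p = 0.68). Cdk2, the partner of cyclins E and A, stood apart from both. It was at 5.66, 6.23 and 6.19 TPM in the labelled knockout and 5.9, 5.51 and 5.06 TPM in WT, the groups overlapped, and its log2 fold change was 0.12 ± 0.09 (adjusted p = 0.36) as deposited but -0.69 ± 0.09 (adjusted p = 0.0015) with median-of-ratios scaling. E2f1, an activating E2F, was at 2.55, 2.91 and 2.86 TPM in the labelled knockout and 1, 1.39 and 1.38 TPM in WT. Its log2 fold change of 0.75 ± 0.11 (adjusted p = 0.0012) became 0.13 ± 0.12 (adjusted p = 0.43) with median-of-ratios scaling and -0.09 with quantile normalization (adjusted p = 0.58).

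Origin licensing genes rose, and the 6 genes of the MCM2-7 helicase, which unwinds DNA at the fork, rose with both scalings. Mcm6 (ENSMUSG00000026355) was at 8.6, 11.5 and 9.05 TPM in the labelled knockout, against 1.16, 1.24 and 1.09 TPM in WT, with the largest change of the G1/S class in log2(TPM + 1) (2.30 ± 0.12, adjusted p = 2.0e-05, and 1.61 ± 0.13 with median-of-ratios scaling, adjusted p = 2.5e-04). By the ratio of mean TPM, Mcm6 (8.36) stood below Cdc6 (13.9), Gins2 (10.8) and Mcm5 (9.12). Mcm3 was at 9.2, 11 and 8.82 TPM in the labelled knockout and 1.67, 1.38 and 1.11 TPM in WT. Mcm5 was at 4.29, 6.16 and 4.96 TPM in the labelled knockout and 0.65, 0.51 and 0.53 TPM in WT. These 3 genes changed most within the complex, and Mcm7 changed least, at 12.1, 14.8 and 13.9 TPM in the labelled knockout and 5.61, 5.62 and 4.73 TPM in WT, a log2 fold change of 1.21 ± 0.11 (adjusted p = 1.5e-04) and of 0.37 ± 0.11 with median-of-ratios scaling (adjusted p = 0.043). Mcm2 had a log2 fold change of 1.72 ± 0.13 and Mcm4 one of 1.41 ± 0.12. The 6 subunits assemble in equal numbers. The highest was 3.42, 3.18 and 4.08 times the lowest in the labelled knockout libraries, and 8.63, 11 and 8.92 times in WT. Mcm7 was the highest in every library, and the other subunits were at 1.67 TPM or below in WT. These ratios therefore depend on Mcm7, and they do not show that the other subunits drew closer to each other. Gins2, a subunit of the GINS complex that joins the helicase, was at 4.97, 6.96 and 5.64 TPM in the labelled knockout, against 0.62, 0.61 and 0.39 TPM in WT (2.15 ± 0.14, adjusted p = 3.5e-05). Of the loading factors, Cdt1 had a log2 fold change of 0.94 ± 0.12 (adjusted p = 5.5e-04) and was not called with median-of-ratios scaling (0.23 ± 0.12, adjusted p = 0.18). Cdc6 was the lowest G1/S member and had the largest ratio of mean TPM in its class (13.9), at 0.35, 1.19 and 0.54 TPM in the labelled knockout and 0.05, 0.03 and 0.07 TPM in WT. Its log2 fold change of 0.66 ± 0.17 (adjusted p = 0.017) lost its call without WT replicate 2 (adjusted p = 0.0503) and with median-of-ratios scaling (0.47 ± 0.16, adjusted p = 0.058). Pcna, the sliding clamp of the replicative polymerases, was at 47.4, 50.1 and 47.7 TPM in the labelled knockout and 16.4, 19.5 and 15.6 TPM in WT, and rose with both scalings (1.45 ± 0.10, adjusted p = 5.8e-05, and 0.54 ± 0.08, adjusted p = 0.003).

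**Figure D2:**
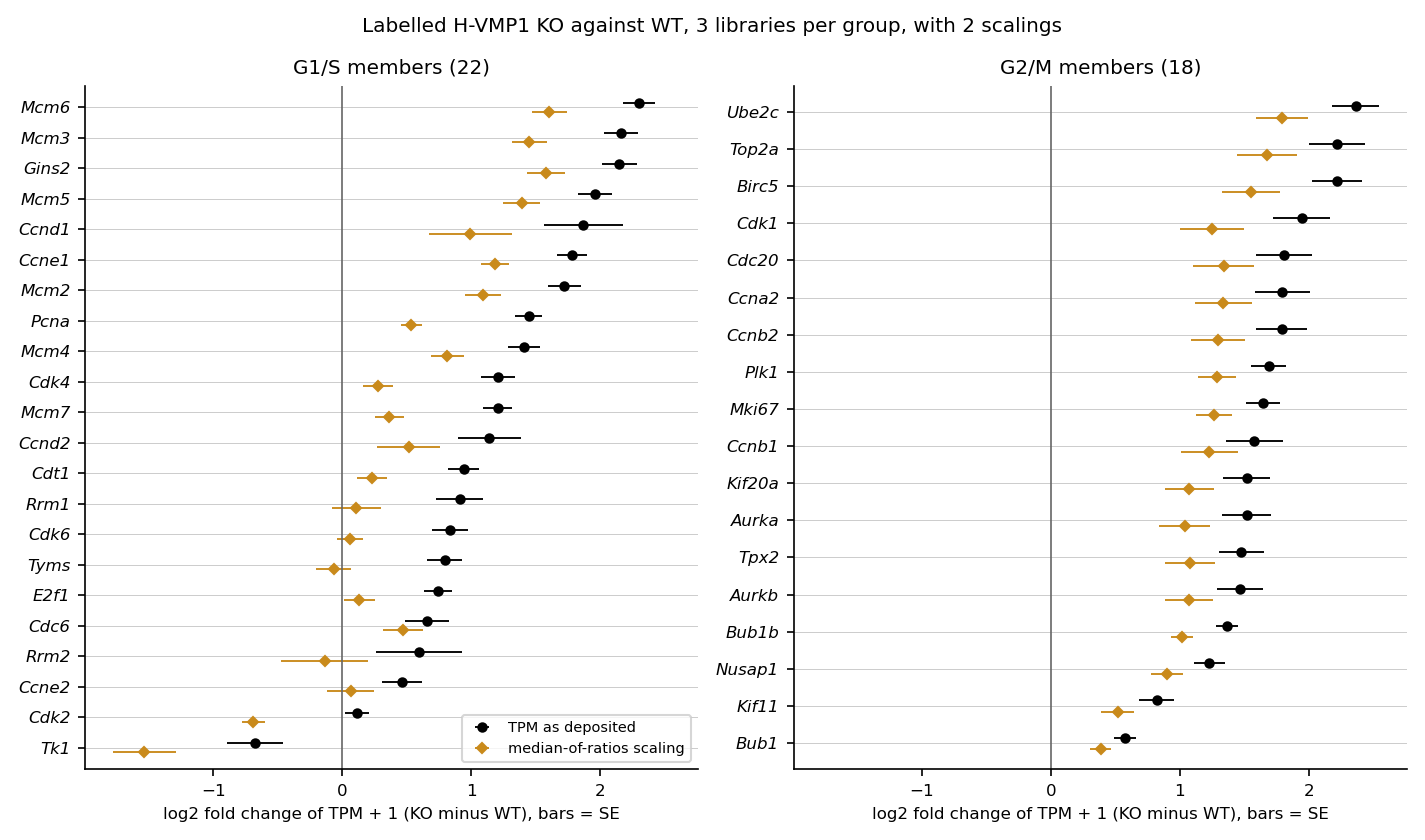
Log2 fold change of TPM + 1, labelled knockout minus WT, for each member with its SE (n = 3 libraries per group), black for the deposited values and orange for median-of-ratios scaling. All 18 G2/M genes lie right of 0 with both scalings, whereas Tk1, Cdk2, Rrm2 and Tyms lie left of 0 with the second.

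Of the 4 genes of deoxynucleotide supply 2 rose, 1 fell and 1 was not called as deposited, and 0 were higher and 1 lower with median-of-ratios scaling, too few genes to set against the 20.6% and 17.8% of all genes. Rrm1, the large subunit of ribonucleotide reductase, was at 6.84, 11.2 and 7.53 TPM in the labelled knockout and 3.72, 4.66 and 3.59 TPM in WT, a log2 fold change of 0.91 ± 0.18 as deposited (adjusted p = 0.0054) and of 0.11 ± 0.19 with that scaling (adjusted p = 0.68). Rrm2, its S-phase regulated small subunit, was at 2.61, 7.34 and 5.75 TPM in the labelled knockout and 2.05, 3.96 and 2.88 TPM in WT. Its groups overlapped, the log2 fold change of 0.60 ± 0.33 was not called (adjusted p = 0.19), and without labelled knockout replicate 1, the lowest of its group, it was called (0.95, adjusted p = 0.016). Tyms, thymidylate synthase, was at 14, 16.8 and 12 TPM in the labelled knockout, against 7.94, 8.24 and 7.05 TPM in WT (0.79 ± 0.14, adjusted p = 0.0024, and -0.07 ± 0.14 with median-of-ratios scaling, adjusted p = 0.72). Tk1, the thymidine kinase of the salvage route, was the member that fell. It was at 6.45, 11.75 and 8.43 TPM in the labelled knockout and 11.82, 15.2 and 16.6 TPM in WT, groups that touch without overlapping. The log2 fold change of -0.68 ± 0.22 (adjusted p = 0.038) grew to -1.53 ± 0.24 (adjusted p = 0.0034) with median-of-ratios scaling. Leaving out 1 library ended the call as deposited for labelled knockout replicate 1 (adjusted p = 0.089), labelled knockout replicate 3 (0.088), WT replicate 2 (0.094) and WT replicate 3 (0.11). Tk1 (chromosome 11, 117815526 to 117826092, minus strand, GENCODE M21 on GRCm38) overlaps Afmid, the kynurenine formamidase gene on the opposite strand, by 169 bases. Afmid was at 5.31, 11.4 and 4.86 TPM in the labelled knockout, against 40.9, 51.1 and 36.2 TPM in WT. A further annotated gene, Gm20708, spans all of Tk1 on the opposite strand and was at 2.68, 2.98 and 1.13 TPM in the labelled knockout, against 16.5, 19 and 16.6 TPM in WT. The strand setting of the counting is not given in the sources used here, so reads of these genes cannot be assigned with certainty, and the part of Afmid and Gm20708 in the Tk1 value was not tested. In all, 11 members overlap another annotated gene with a mean of at least 1 TPM in a group. Of these, 10 were called higher as deposited: Ccna2, Ccnd1, Ccne2, Cdc20, Cdk4, Cdt1, Gins2, Kif20a, Mcm7 and Nusap1. So were 37 of all 40 members, 44.3% of all tested genes and 74.5% of the expressed genes. Ccna2 overlaps Exosc9 by 863 bases, at 23, 22.3 and 26.1 TPM in the labelled knockout, against 7.81, 8.52 and 6.82 TPM in WT. Ccne2 overlaps Ints8 by 5622 bases, at 10.9, 11.5 and 10.1 TPM in the labelled knockout, against 8.5, 10.3 and 12 TPM in WT. The part of overlapping genes in these members was not tested either.

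The G2/M members were under 1 TPM in most WT libraries and at a few TPM in the labelled knockout. Of the 18, 16 were under 1 TPM in every WT library, and 16 were at 1 TPM or more in every labelled knockout library. The middle member had a mean of 2.77 TPM in the labelled knockout and 0.232 TPM in WT, where the middle G1/S member had 5.94 and 1.71 TPM. Their log2 fold changes ran from 0.58 for Bub1 to 2.36 for Ube2c as deposited (adjusted p from 3.1e-05 to 0.002) and from 0.39 to 1.79 with median-of-ratios scaling (adjusted p from 2.4e-04 to 0.022).

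The kinase that starts mitosis and its cyclins rose together. Cdk1 was at 5.38, 10.9 and 8.36 TPM in the labelled knockout and 1.43, 1.1 and 1.43 TPM in WT, a log2 fold change of 1.95 ± 0.22 (adjusted p = 3.8e-04). Ccnb1, encoding cyclin B1, was at 1.44, 3.58 and 2.12 TPM in the labelled knockout, against 0.1, 0.07 and 0.11 TPM in WT (1.58 ± 0.22, adjusted p = 9.3e-04). Ccnb2 was at 2.86, 5.47 and 3.13 TPM in the labelled knockout and 0.42, 0.31 and 0.34 TPM in WT. Ccna2, encoding cyclin A2, was at 2.5, 5.18 and 2.99 TPM in the labelled knockout and 0.34, 0.23 and 0.25 TPM in WT. For these 4 genes the lowest labelled knockout library was above the highest WT library, as for 48.5% of all tested genes and 75.5% of the expressed genes. Replicate 2 was the highest of its group in each, as for 25.1% of the expressed genes.

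Proliferation markers and chromosome proteins rose as well, each highest in labelled knockout replicate 2, as were 25.1% of the expressed genes. Mki67, whose product Ki-67 coats mitotic chromosomes and is the usual stain for cycling cells, was at 2, 3.14 and 2.61 TPM in the labelled knockout, against 0.12, 0.11 and 0.17 TPM in WT (1.65 ± 0.13, adjusted p = 8.2e-05). Top2a, the topoisomerase that disentangles sister chromatids, was at 4.07, 8.18 and 5.67 TPM in the labelled knockout and 0.37, 0.63 and 0.37 TPM in WT (2.22 ± 0.22, adjusted p = 1.9e-04). Birc5, encoding survivin of the chromosomal passenger complex, was at 6.36, 11.2 and 8.01 TPM in the labelled knockout and 0.76, 1.06 and 1.21 TPM in WT (2.22 ± 0.20, adjusted p = 1.2e-04). Birc5 and Cdk1 were the G2/M members whose WT mean was at least 1 TPM.

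Mitotic kinases, the destruction machinery and spindle proteins were likewise all called higher. Among the kinases, Plk1 was at 2.18, 3.45 and 2.73 TPM in the labelled knockout, against 0.21, 0.17 and 0.11 TPM in WT. Aurka, acting at the spindle poles, had a log2 fold change of 1.52 ± 0.19, and Aurkb, the kinase of the passenger complex, one of 1.46 ± 0.18. Among the spindle checkpoint genes, Bub1b was at 1.81, 2 and 1.85 TPM in the labelled knockout and 0.15, 0.08 and 0.13 TPM in WT, and Bub1 at 0.44, 0.71 and 0.64 TPM in the labelled knockout and 0.1, 0.03 and 0.07 TPM in WT. Ube2c, the ubiquitin-conjugating enzyme of the anaphase-promoting complex, had the largest change of all members in log2(TPM + 1), at 5.14, 9.01 and 6.34 TPM in the labelled knockout and 0.55, 0.41 and 0.51 TPM in WT (2.36 ± 0.18, adjusted p = 7.0e-05). By the ratio of mean TPM, which the added 1 does not flatten, Ube2c (13.9) stood below Ccnb1 (25.5), Mki67 (19.4), Plk1 (17.1), Bub1b (15.7) and Nusap1 (14.3). Cdc20, which activates that complex, was at 2.93, 5.32 and 2.63 TPM in the labelled knockout and 0.23, 0.19 and 0.43 TPM in WT. The motor genes Kif11 and Kif20a, which act in spindle assembly and cytokinesis, had log2 fold changes of 0.82 ± 0.13 and 1.52 ± 0.18, and the spindle assembly genes Tpx2 and Nusap1 had 1.48 ± 0.17 and 1.23 ± 0.12.

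Within the labelled knockout the members were not level across libraries. Replicate 2 was the highest of the 3 labelled knockout libraries for 18 of 18 G2/M members and 19 of 22 G1/S members, against 25.1% of the expressed genes. Replicate 1 was the lowest for 16 of 18 G2/M and 14 of 22 G1/S members, against 21.5% of those genes. The summed level of the G2/M members was 47.1, 86 and 58.9 TPM in the labelled knockout, against 6.22, 5.49 and 6.65 TPM in WT, and that of the G1/S members was 280.7, 354 and 283 TPM, against 118, 140.1 and 114 TPM in WT. Relative to the mean of the 3 labelled knockout libraries, the median G2/M member was at 0.41 in replicate 2 and -0.42 in replicate 1 on the log2 scale, and the median G1/S member at 0.21 and -0.13. These are single libraries, so the difference between replicates has no test. Without replicate 2 all 18 G2/M members were still called higher as deposited. Their median log2 fold change was then 1.44, against 0.15 over all 27683 genes tested. With no library left out, 44.3% of all tested genes were called higher.

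**Figure D3:**
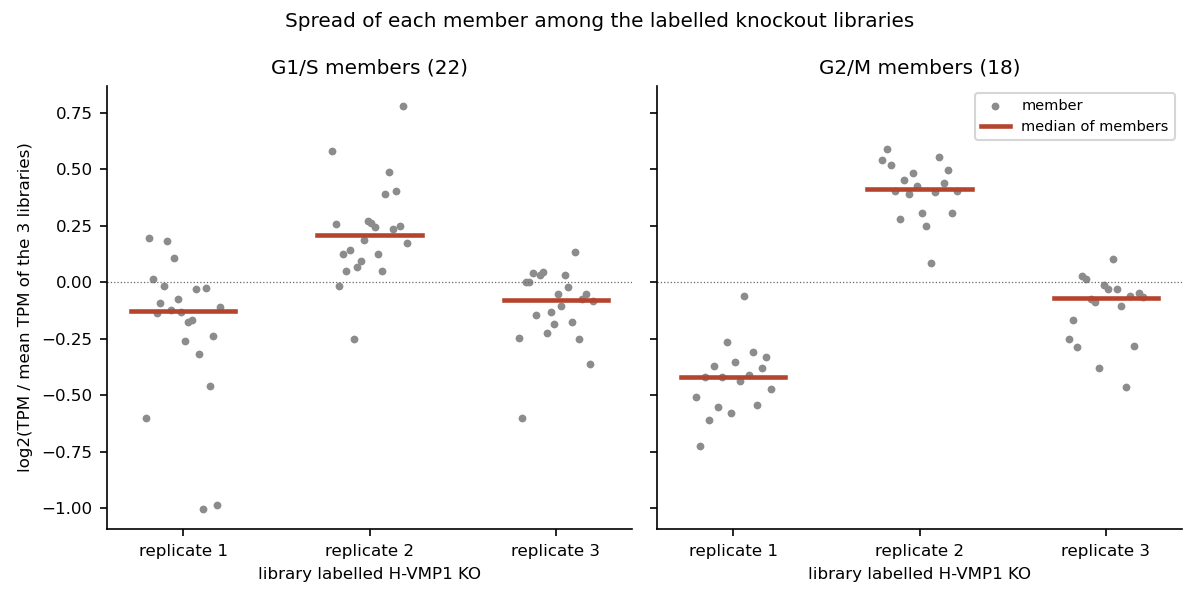
Log2 ratio of each member's TPM to its mean over the 3 labelled knockout libraries, with the median of the members as a red bar, for 22 G1/S and 18 G2/M genes. The G2/M points of replicate 2 all lie above 0 and those of replicate 1 all below 0, and the G1/S points spread across 0 in each library.

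Markers of other cells of the liver moved with the members between the groups. As deposited, where 44.3% of all tested and 74.5% of expressed genes were higher, the genes called higher were 16 of 16 macrophage, 15 of 15 T and NK cell, 7 of 8 B cell, 5 of 10 neutrophil, 10 of 10 endothelial, 10 of 10 stellate and fibroblast and 6 of 8 cholangiocyte markers. Of 10 hepatocyte markers 0 were higher and 8 lower. Under median-of-ratios scaling, where 20.6% of all genes were higher and 17.8% lower, the higher calls were 15 macrophage, 14 T and NK cell, 5 B cell, 5 neutrophil, 8 endothelial, 10 stellate and fibroblast and 4 cholangiocyte markers, and the lower calls 1 neutrophil, 1 cholangiocyte and 10 hepatocyte markers. The summed T and NK cell markers reached 17.6, 25.7 and 15.3 TPM in the labelled knockout, against 2.49, 2.81 and 2.29 TPM in WT, and the neutrophil markers 46.1, 60.9 and 28.8 TPM, against 2.47, 3.84 and 2.38 TPM in WT. For both sums replicate 2 was again the highest labelled knockout library, as it was for the stellate and fibroblast, cholangiocyte and hepatocyte sums. Most of the neutrophil sum came from S100a8 and S100a9. In the labelled knockout S100a8 was at 16.2, 18.5 and 10.3 TPM, against 0.55, 0.66 and 0.77 TPM in WT. S100a9 was at 21.8, 31.3 and 12.35 TPM in the labelled knockout, against 1.06, 2.09 and 0.77 TPM in WT. The macrophage sum was lowest in replicate 2 (1754, 1497 and 1928 TPM in the labelled knockout, against 145, 243 and 167 TPM in WT), as was the endothelial sum (229.5, 189 and 241 TPM, against 60.7, 72.6 and 65.2 TPM in WT). The macrophage list was divided: 11 of its 16 markers were lowest in replicate 2. The other 5 (Ccr2, Ly6c2, Lyz2, Trem2 and Gpnmb) were highest there. B cell markers summed to 36.8, 36.9 and 38 TPM in the labelled knockout and 7.95, 7.91 and 3.33 TPM in WT. Stellate and fibroblast markers summed to 295, 333 and 281 TPM in the labelled knockout and 48.4, 52.3 and 53 TPM in WT. That list was divided too: 4 of its 10 markers were highest in replicate 2 (Col1a1, Col1a2, Col3a1 and Lum) and 4 were lowest there (Lrat, Reln, Des and Pdgfrb). Cholangiocyte markers summed to 152, 189.6 and 137 TPM in the labelled knockout and 26.4, 35.6 and 39 TPM in WT. Most of the cholangiocyte sum was Spp1, at 124, 164 and 116 TPM in the labelled knockout, against 14.3, 25.5 and 29.8 TPM in WT, and the mean log2(TPM + 1) over that list was highest in replicate 1 (2.57, 2.51 and 2.31 in the labelled knockout, against 1.32, 1.38 and 1.37 in WT). Hepatocyte markers, led by Alb, still summed to 23853, 27574 and 23769 TPM in the labelled knockout, against 54127, 70571 and 52857 TPM in WT. The neutrophil marker Ly6g was listed at 0 in every WT library, and Camp in all libraries but labelled knockout replicate 2. Which cells held the transcripts of the members, and the part of these cell types in their levels, was not tested.

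**Figure D4:**
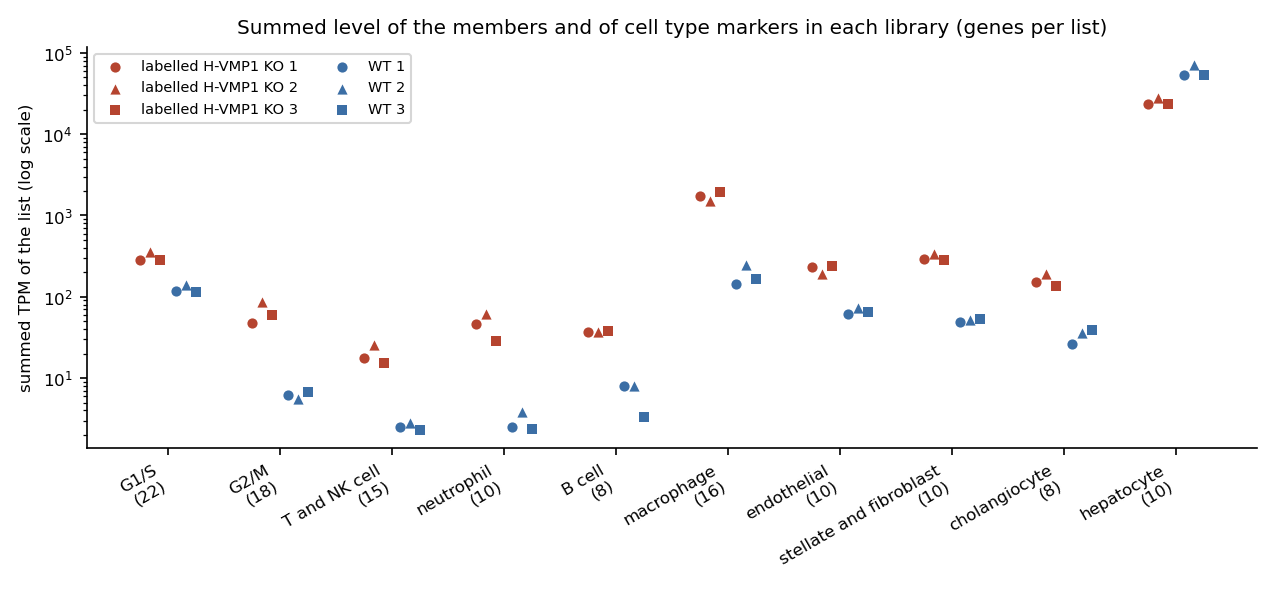
Summed TPM of the G1/S and G2/M members and of each marker list in each library, on a log scale, with the number of genes per list and the labelled knockout left of WT. Apart from the hepatocyte list, every list is higher in all 3 labelled knockout libraries than in all 3 WT libraries, and replicate 2 (triangle) is the highest labelled knockout library for the members and the T and NK cell, neutrophil, stellate, hepatocyte and, through Spp1, cholangiocyte lists but not for the macrophage, endothelial and B cell lists.

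Other genes of the cycle were read in lists by function, against 44.3% of all genes called higher and 5.7% lower as deposited, and 20.6% and 17.8% with median-of-ratios scaling. All 36 tested genes of spindle, cytokinesis and chromosome condensation were called higher, and 29 were higher and 1 lower with median-of-ratios scaling (Pttg1, securin, at -0.21 ± 0.06, adjusted p = 0.039, named after its value was seen). The list was led by the tubulin gene Tubb4b, which is not confined to mitosis, at 552, 476 and 542 TPM in the labelled knockout and 74, 55.1 and 58 TPM in WT. Of 22 kinetochore and checkpoint genes 17 were higher and 0 lower as deposited, and 16 and 3 with that scaling, with Incenp rising most (2.33 ± 0.17, adjusted p = 6.2e-05). All 14 genes of the anaphase-promoting complex were higher as deposited, but 2 were higher and 3 lower with median-of-ratios scaling, and Anapc4 led with 1.49 ± 0.09 (adjusted p = 2.6e-05). Of 42 licensing and replication fork genes 36 were higher and 2 lower as deposited, and 14 and 7 with that scaling. The ligase gene Lig1 led the increases, at 11.7, 13.9 and 12 TPM in the labelled knockout and 0.89, 1.58 and 1.27 TPM in WT. The same list held a strong decrease: Mcm10, a replication initiation factor, was at 2.17, 5.18 and 2.49 TPM in the labelled knockout, against 54.1, 64.9 and 53.1 TPM in WT (-3.83 ± 0.25, adjusted p = 4.4e-05).

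Regulators of the cycle are given against the same shares of all genes. Cdkn1a, encoding the CDK inhibitor p21 and a p53 target, was at 83.2, 65.5 and 89.6 TPM in the labelled knockout, against 1.39, 2.42 and 1.41 TPM in WT, a log2 fold change of 4.88 ± 0.18 (adjusted p = 8.3e-06). It exceeded the fold change of every member. Of 7 CDK inhibitor genes 5 were higher and 0 lower as deposited, and 3 and 2 with median-of-ratios scaling. Of 19 genes of the E2F, RB and MuvB group 12 were higher and 3 lower as deposited, and 5 and 9 with that scaling. Foxm1, an activator of G2/M genes, was at 1.44, 2.25 and 1.59 TPM in the labelled knockout and 0.08, 0.08 and 0.2 TPM in WT (1.29 ± 0.13, adjusted p = 2.1e-04), and Mybl2, encoding B-MYB, at 1.31, 1.7 and 1.53 TPM in the labelled knockout and 0.53, 0.22 and 0.3 TPM in WT (0.90 ± 0.12, adjusted p = 7.3e-04). Rb1 had a log2 fold change of 0.40 ± 0.08 as deposited (adjusted p = 0.0061) and of -0.28 ± 0.07 with median-of-ratios scaling (adjusted p = 0.025). The repressors E2f7 and E2f8, which promote polyploidy in mouse liver, differed in direction. E2f7 was higher by 0.45 ± 0.09 (adjusted p = 0.0044) and was not called with median-of-ratios scaling (0.26 ± 0.09, adjusted p = 0.061). E2f8 was at 0.5, 0.95 and 0.66 TPM in the labelled knockout and 2.12, 1.38 and 1.74 TPM in WT (-0.69 ± 0.15, adjusted p = 0.0064). A transcript on the opposite strand of E2f8, Gm2788, overlaps it by 3639 bases and was at 0.19, 0.67 and 0.49 TPM in the labelled knockout, against 40.3, 22.1 and 22.3 TPM in WT, and its part in the E2f8 value was not tested. Among 19 tested genes of other cyclins, phosphatases and checkpoint kinases 17 were higher and 1 lower as deposited, and 12 and 4 with median-of-ratios scaling. In that list Ccng1, a p53 target, rose most (2.41 ± 0.11, adjusted p = 1.3e-05), and Ccnf, encoding cyclin F, fell (-0.82 ± 0.16, adjusted p = 0.004). Ccnb3 was listed at 0 in every library.

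**Figure D5:**
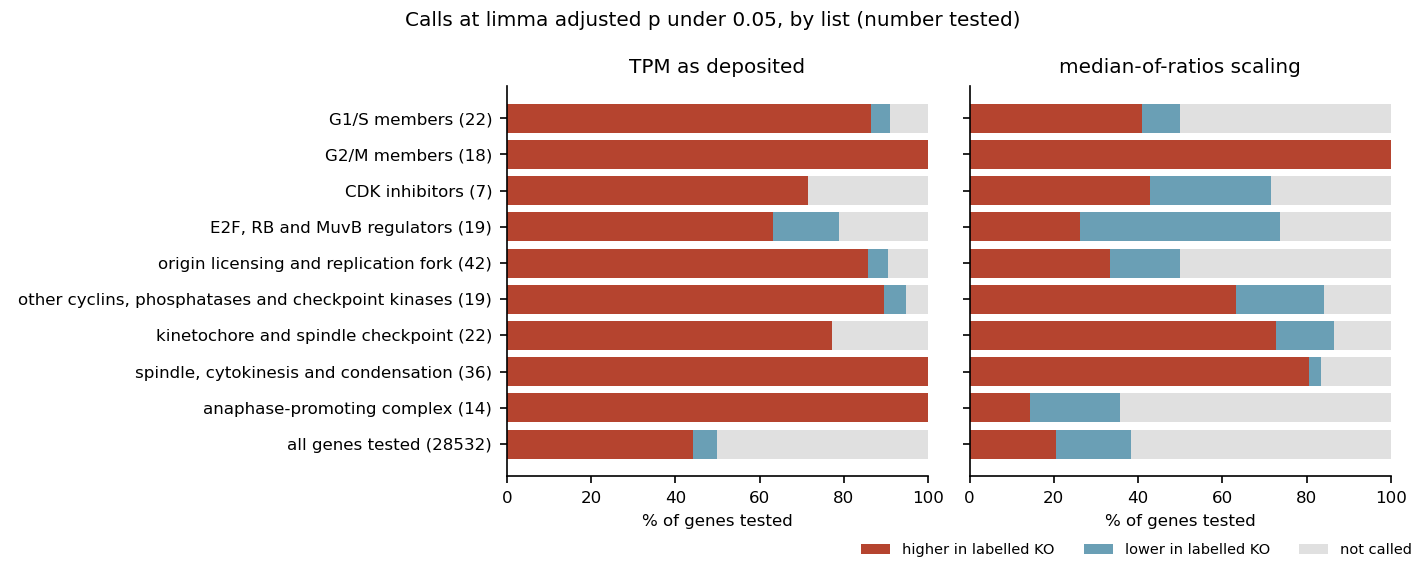
Percent of tested genes called higher, lower or not called at a limma adjusted p under 0.05 in the member classes, the other cell cycle lists and all genes, with deposited values on the left and median-of-ratios scaling on the right. With the second the G2/M members and the spindle list have the largest shares of higher calls, 18 of 18 and 29 of 36.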

How the data were processed

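The deposited table gives TPM for 55536 genes, 1 column per library, as made by the authors, with equal column sums. Tools listed in the submitters' processing notes are RSEM, edgeR and STAR 2.6.1c, and the build is mm10, without role or order. For read totals, annotation and strand setting the sources used here give nothing, so no count model was fitted. All 6 columns matched a sample title, and 0 were left unmapped.

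Log2(TPM + 1) of all genes above 0 in at least 1 library was fitted with limma 3.58.1 in R 4.3.3 (intensity trend, robust variances, no replicate block), with Benjamini-Hochberg adjustment and a threshold of 0.05. No stricter filter was used, because members low in WT would pass one only by being high in the labelled knockout. Other settings were pseudocounts of 0.1 and 0.5, a filter of 1 TPM in 3 libraries, median-of-ratios and quantile scaling, limma without trend and robust variances, a threshold of 0.01, a replicate block, and each library left out. The procedure was tested on simulated data. All members are named; each other list contributes its strongest called increase and decrease (mean of at least 1 TPM in a group), with Cdkn1a, Foxm1, Mybl2, Rb1, E2f7 and E2f8. Members and lists were chosen with earlier results of these data known. Positions are from GENCODE M21 (GRCm38), which matched all 40 members, and promoters from RefSeq (GRCm38.p6). Figures used matplotlib 3.10.9 under Python 3.11.15.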

Additional observations from a re-analysis of the deposited data

How the results depend on the processing

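Results were recomputed under 14 other settings. Scaling between libraries mattered most: of 188 values recomputed with the 2 other scalings, 119 were counted as kept and 10 reversed. A gene was counted as kept with the same direction and call, a count of calls within a set ratio, and a median within the spread between libraries. By this rule the count of members called higher was kept at 27 with median-of-ratios scaling, against 37 as deposited. With median-of-ratios scaling and quantile normalization in turn, the members called lower numbered 2 and 2, the G1/S members called higher 9 and 11 and lower 2 and 2, and all genes called higher 5871 and 5553 and lower 5091 and 5367, against 12636 higher and 1625 lower as deposited. In the same order the median log2 fold change was 0.42 and 0.41 for the G1/S members and 1.24 and 1.12 for the G2/M members, and that of Vmp1 -0.18 and 0.23. Values that turned negative were Cdk2 (-0.69 and -0.70), Rrm2 (-0.13 and -0.23), Rb1 (-0.28 and -0.45), Tyms (-0.065, median-of-ratios scaling), and Ccne2 (-0.12) and E2f1 (-0.086), both with quantile normalization. Under the other settings 1079 of 1124 values were counted as kept by the same rule and 0 reversed. A pseudocount of 0.1 gave medians of 1.42 (G1/S) and 3.11 (G2/M), and 0.5 gave 2.21 for G2/M, since a smaller pseudocount compresses low genes less. Members called lower, all of them G1/S (Tk1), numbered 0 without trend and robust variances and 0 at a threshold of 0.01, and between 0 and 1 with 1 library left out, for the members and for the G1/S class. The replicate numbers were not taken as pairs: same-numbered libraries deviated with correlations of 0.076, 0.040 and -0.115, and 3 of 6 libraries correlated best with their own number. With the replicate number as a block, all genes called higher numbered 12078 and all genes called lower 1533, 38 members were higher, Rrm2 being gained, and the E2F, RB and MuvB regulators list called lower held 1 gene, against 3 without the block. The unknown depth limits the genes below 1 TPM most.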

Other observations

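A few cell cycle genes outside the 40 were far above the members of their function in WT, and are given as values chosen after they were seen. Hjurp, which deposits the centromeric histone, averaged 27.1 TPM in the labelled knockout and 33 TPM in WT and was not called as deposited (-0.26, adjusted p = 0.18) but was lower after scaling by the median of ratios (-1.17, adjusted p = 0.0016), and Spc24, a kinetochore subunit, averaged 12 TPM in the labelled knockout and 11.4 TPM in WT (0.04, adjusted p = 0.87, and -0.83 with that scaling, adjusted p = 0.02). The adjusted p are those of limma over all tested genes.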
